A study of Rattus norvegicus with 6 samples.

Results

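A set of 36 genes for the synthesis, uptake, handling and export of sterols was examined in cerebral arteries of male rats 6 hours after subarachnoid haemorrhage (SAH), in which blood enters the fluid on the brain's surface. The genes were a given list, and each was represented by the array probe set annotated to that gene and no other, the brightest on average where several exist. Of the 36 genes 33 were measured in this way, of 18166 genes measured in the series, and each of the 33 had 1 such probe set. Hmgcs1 and Mvk, which encode enzymes of the mevalonate route, and Fasn, fatty acid synthase, had no probe set naming them alone in the annotation used here. The study hybridised 6 Affymetrix rat arrays with biotin-labelled material, starting from 6 µg of total RNA. The SAH group held 3 arrays, numbered 1, 4 and 5 in the labels, and the sham-operated group held 3, numbered 6, 7 and 8. The labels give no strain, no age and no interval between sham surgery and sampling, and they name no agent or allele. The labels do not say whether an array held 1 animal or a pool, so the spread that the p-values measure is that between these samples and may be technical. Where 3 values are given for a group they follow the order of its array numbers, 1, 4 and 5 for SAH and 6, 7 and 8 for sham.

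Cells make cholesterol from acetyl-CoA by the mevalonate route, which leads to squalene, and by a second series of steps that turn squalene into cholesterol. When sterols in the endoplasmic reticulum run low, the escort protein Scap carries the SREBP transcription factors to the Golgi for cleavage, and they switch on the synthesis genes. When sterols are plentiful, the Insig proteins hold Scap back, and oxysterols activate the LXR receptors, which switch on exporters such as Abca1 and Abcg1. Ch25h makes an oxysterol that blocks SREBP processing, and it is known as an interferon-inducible gene in macrophages.

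All values are log2 expression values, and differences are the SAH mean minus the sham mean, with the standard error (SE) from limma. Its two-sided p-values were adjusted by Benjamini-Hochberg across 36495 probe sets, and genes with an adjusted p under 0.05 are termed called. Across the series 0.963% of genes were called higher and 0.330% lower after SAH. The smooth muscle gene Tagln read 13.43 to 13.63 and Myh11 12.51 to 13.04 over the 6 arrays, whose median values lay between 7.31 and 7.37, so markers of the arterial wall were present in every array. Over all genes 52.7% of differences lay below 0, and in 15.4% every SAH array was lower than every sham array. The smooth muscle list also read lower after SAH, with a median difference of -0.23. In this list 7 of 8 measured differences lay below 0, 5 of them without overlap of the groups. Its one called member was Smtn, smoothelin, which fell by 1.18 ± 0.13 (SE), or 2.27-fold (limma adjusted p = 0.0197), and the part of this list in the values of the sterol genes was not tested. The arrays correlated with one another at r of 0.970 to 0.991 across probe sets.

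Only 1 of the 33 sterol genes was called. Abcg4, a transporter that hands cellular sterol to lipoprotein particles, fell after SAH, and no member rose. At an unadjusted p under 0.05 limma gave 1 higher gene (3.03%) and 6 lower ones (18.2%), where 8.16% of all genes were higher and 10.5% lower. The 16 measured synthesis genes, the 5 genes of SREBP control and Ch25h had no called member, and at the unadjusted threshold 1 of the 16 synthesis genes was higher (6.25%) and 2 lower (12.5%), shares near those of all genes. Over the 33 genes the median difference was -0.11, against -0.01 over all genes, and 66.7% of the differences lay below 0, against 52.7% over all genes. The other 32 members had adjusted p of at least 0.166 and differed by at most 1.59-fold. In 8 of the 33 genes (24.2%) every SAH array was lower than every sham array, where this held for 15.4% of all genes. In 1 gene (3.03%), Lss, every SAH array was higher, against 11.4% of all genes. Of the 8 lower genes 7 were not called.

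**Figure D1:**
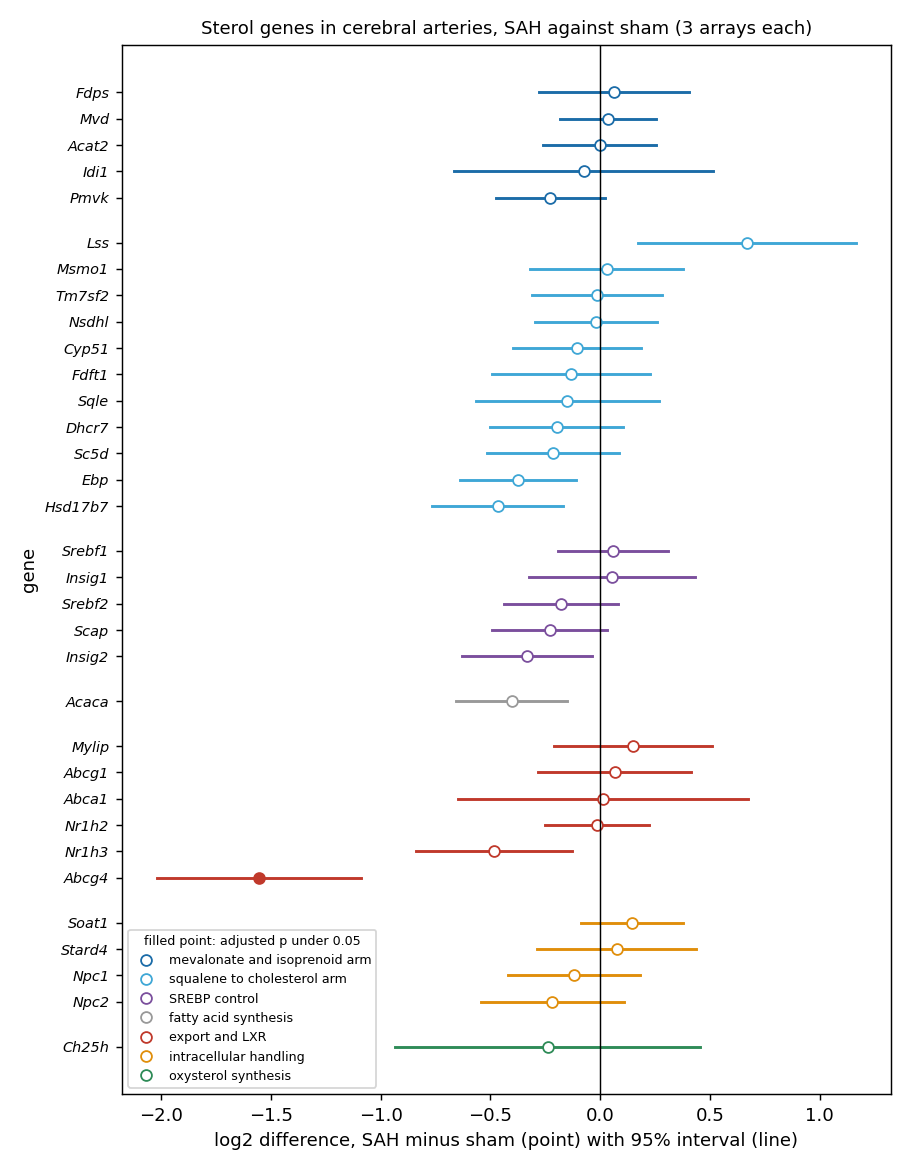
The log2 difference, SAH minus sham, of the 33 measured sterol genes is drawn as a point with its 95% interval as a line, coloured by subgroup; 3 arrays in each group, and intervals are not adjusted for the number of genes. The filled point, Abcg4 at -1.55, is the one member with an adjusted p under 0.05, and Lss at 0.67 is the highest point.

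Abcg4 (probe set 17851697) read 10.54, 10.07 and 10.12 in sham and 9.03, 8.43 and 8.61 after SAH. Every SAH array lay below every sham array, and the gap between the nearest arrays was 1.04. The mean fell from 10.24 ± 0.26 to 8.69 ± 0.31 (SD, n = 3 each), a difference of -1.55 ± 0.20 (SE; 95% interval -2.02 to -1.09) or 2.94-fold (limma adjusted p = 0.0262). The call did not withstand the loss of most single arrays. By limma the adjusted p was 0.0104 when SAH array 1 was left out. It was 0.116 when SAH array 4 and 0.109 when SAH array 5 was left out. Leaving out sham array 6, 7 or 8 gave 0.123, 0.109 and 0.0769. The difference stayed between -1.72 and -1.41 in these fits, in which the genes called lower over the whole series numbered 183 without SAH array 1 and at most 5 otherwise. In arterial tissue measured in bulk, fewer cells of a type and less RNA per cell cannot be told apart.

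Abcg4 is best known from neurons and astrocytes, so the markers of these cells are given beside it. None of 8 measured neuron markers and none of 5 measured astrocyte markers was called, and at an unadjusted p under 0.05 limma gave 1 neuron marker higher. The mean over the neuron list was 6.95 to 7.41 in SAH and 6.99 to 7.48 in sham arrays, and that over the astrocyte list 9.45 to 10.13 and 9.75 to 10.34, so the groups overlapped for both. Of the astrocyte markers 4 of 5 had differences below 0, with a median of -0.31. Of the neuron markers 4 of 8 did, with a median of -0.05. The part of either list in the value for Abcg4 was not tested. The astrocyte marker Gfap read 8.71, 9.76 and 9.28 after SAH and 9.21, 10.09 and 10.23 in sham. Among lists of the arterial wall, the smooth muscle mean was 11.49 to 11.56 in SAH and 11.75 to 11.95 in sham arrays. That of the leptomeningeal and adventitial fibroblast list was 11.34 to 11.77 and 11.91 to 11.97, so neither list overlapped between the groups. The endothelium mean did overlap, at 9.92 to 10.20 and 10.01 to 10.31. The part of these lists in the value for Abcg4 was not tested either. The neutrophil list had differences of all 11 measured members of 13 above 0, none called and 3 higher at an unadjusted p under 0.05 by limma. Their mean was 8.80, 8.92 and 9.87 after SAH and 7.38, 7.52 and 9.37 in sham, so sham array 8 alone of the sham arrays lay in the SAH range. With this neutrophil mean as a covariate, Abcg4 differed by -1.42 ± 0.25 (SE) and was not called (limma adjusted p = 0.142). That fit called 23 genes higher and 0 lower over the series by limma. At an unadjusted p under 0.05 limma gave 875 higher and 1046 lower genes in it. The part of the neutrophil list in the value for Abcg4 was not tested.

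The start of Abcg4 is shown because it is the one member called, together with those of Lss and Hsd17b7, the synthesis genes that differed most in each direction. Each window runs from 250 bases before to 50 after the annotated start, read 5′ to 3′ on the gene's strand, from RefSeq on GRCr8: chr8:53523522-53523821 (minus strand) for Abcg4, chr20:12118181-12118480 (minus strand) for Lss and chr13:84722705-84723004 (minus strand) for Hsd17b7. Capitals mark matches, on either strand, to any of the motifs searched.
Abcg4: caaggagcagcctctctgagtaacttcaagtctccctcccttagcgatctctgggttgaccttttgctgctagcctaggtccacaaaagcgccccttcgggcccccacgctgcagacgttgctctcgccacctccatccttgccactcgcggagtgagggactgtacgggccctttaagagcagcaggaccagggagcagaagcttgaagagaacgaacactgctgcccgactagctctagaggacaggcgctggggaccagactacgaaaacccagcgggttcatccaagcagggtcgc
Lss: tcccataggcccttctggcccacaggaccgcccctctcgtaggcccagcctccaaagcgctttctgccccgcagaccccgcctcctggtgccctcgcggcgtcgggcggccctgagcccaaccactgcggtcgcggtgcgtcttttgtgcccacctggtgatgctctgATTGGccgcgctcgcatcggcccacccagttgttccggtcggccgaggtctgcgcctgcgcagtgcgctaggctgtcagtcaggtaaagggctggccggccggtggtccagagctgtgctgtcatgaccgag
Hsd17b7: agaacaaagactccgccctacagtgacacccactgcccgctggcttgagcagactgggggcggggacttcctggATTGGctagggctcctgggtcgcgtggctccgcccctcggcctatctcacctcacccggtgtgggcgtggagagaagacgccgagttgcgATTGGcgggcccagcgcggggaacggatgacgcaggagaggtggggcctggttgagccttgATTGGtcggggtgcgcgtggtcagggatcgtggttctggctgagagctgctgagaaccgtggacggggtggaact

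The capitals in Lss and Hsd17b7 are CCAAT boxes, the letters CCAAT or their reverse complement, which are bound by the factor NF-Y. Lss holds 1, at position -82 from the start, and Hsd17b7 holds 3, at -176, -86 and -25. RefSeq windows were matched by symbol for 29 of the 36 genes, with 30 windows in all since Srebf1 has 2. A CCAAT box was found in 20 of the 30 windows (66.7%), 12 of them among 15 synthesis genes, and in 37.5% of 33465 windows of the same length. The E-box CACGTG was found in 4 of 30 (13.3%), those of Abca1, Insig1, Sc5d and Scap, against 6.42% of all windows. The sterol regulatory element core was searched only as TCACNCCAC, not in variant forms. It was in none of the 30 windows and in 1.12% of all. Likewise none held the LXR direct repeat, searched as AGGTCA repeated after 4 free bases with up to 2 mismatches (2.93% of all windows), or an interferon-stimulated core, searched as GAAA, 2 free bases and GAAA (3.92% of all). These are descriptions of letters in short windows, and the CCAAT box was present in genes that read higher, lower and about level after SAH.

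Among the exporters and their regulators, the LXR targets Abca1, Abcg1 and Mylip overlapped between the groups, unlike Abcg4. Abca1, the main exporter of cholesterol to lipid-poor apolipoprotein, read 10.60, 10.57 and 10.56 after SAH. In sham arrays 6, 7 and 8 it read 10.14, 10.29 and 11.26, so sham array 8 lay above and the other sham arrays below all SAH arrays. Its difference was 0.01 ± 0.28 (SE; 95% interval -0.65 to 0.67), and without sham array 8 it was 0.36, the highest value with an array left out. With the neutrophil covariate it was -0.45 ± 0.21. The array that carried the high Abca1 value, sham 8, was also the sham array with the high neutrophil list mean of 9.37. Of the sham arrays it also had the highest means over the neuron, astrocyte, and macrophage and monocyte lists. The part of any of these lists in the value for Abca1 was not tested. Abcg1, which exports sterol to mature lipoprotein particles, differed by 0.07 ± 0.15 and Mylip, a ubiquitin ligase and LXR target, by 0.15 ± 0.15.

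Of the LXR receptors, Nr1h3, LXR alpha, had lower values after SAH and read 9.10, 9.23 and 9.22 in sham and 8.96, 8.42 and 8.73 after SAH. All SAH arrays were lower, by 0.14 at the nearest pair, with a difference of -0.49 ± 0.15 (SE; 95% interval -0.84 to -0.13) that was not called (limma adjusted p = 0.214). Nr1h2, LXR beta, differed by -0.01 ± 0.10. Whether the 2 receptors differ in their response was not tested. Of the macrophage and monocyte markers, cells in which Nr1h3 is well known, 6 of 10 had differences below 0 and none was called, with 5 lower at an unadjusted p under 0.05 by limma. Their mean was 9.61 to 9.91 in SAH and 9.78 to 10.34 in sham arrays, and their part in the value for Nr1h3 was not tested.

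Ch25h did not differ beyond its spread, although interferon-induced genes were high in the same SAH arrays. It read 11.07, 11.71 and 11.66 after SAH and 11.62, 11.24 and 12.29 in sham. The groups overlapped, with sham array 8 highest and SAH array 1 lowest. The difference was -0.24 ± 0.29 (SE; 95% interval -0.93 to 0.45; limma adjusted p = 0.773), and it ran from -0.48 to 0.05 with an array left out. With the neutrophil covariate it was -0.69 ± 0.25 (limma adjusted p = 0.471). As for Abca1, sham array 8 was highest both in Ch25h and, among sham arrays, in the neutrophil list. The part of this list in the value for Ch25h was not tested. In the same arrays 8 of 9 measured genes of an interferon list were called higher. The mean of that list was 12.14, 12.64 and 12.68 after SAH and 9.91 to 10.12 in the sham arrays, with Irf7 at 12.20, 12.64 and 12.67 against 9.87 to 10.05.

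**Figure D2:**
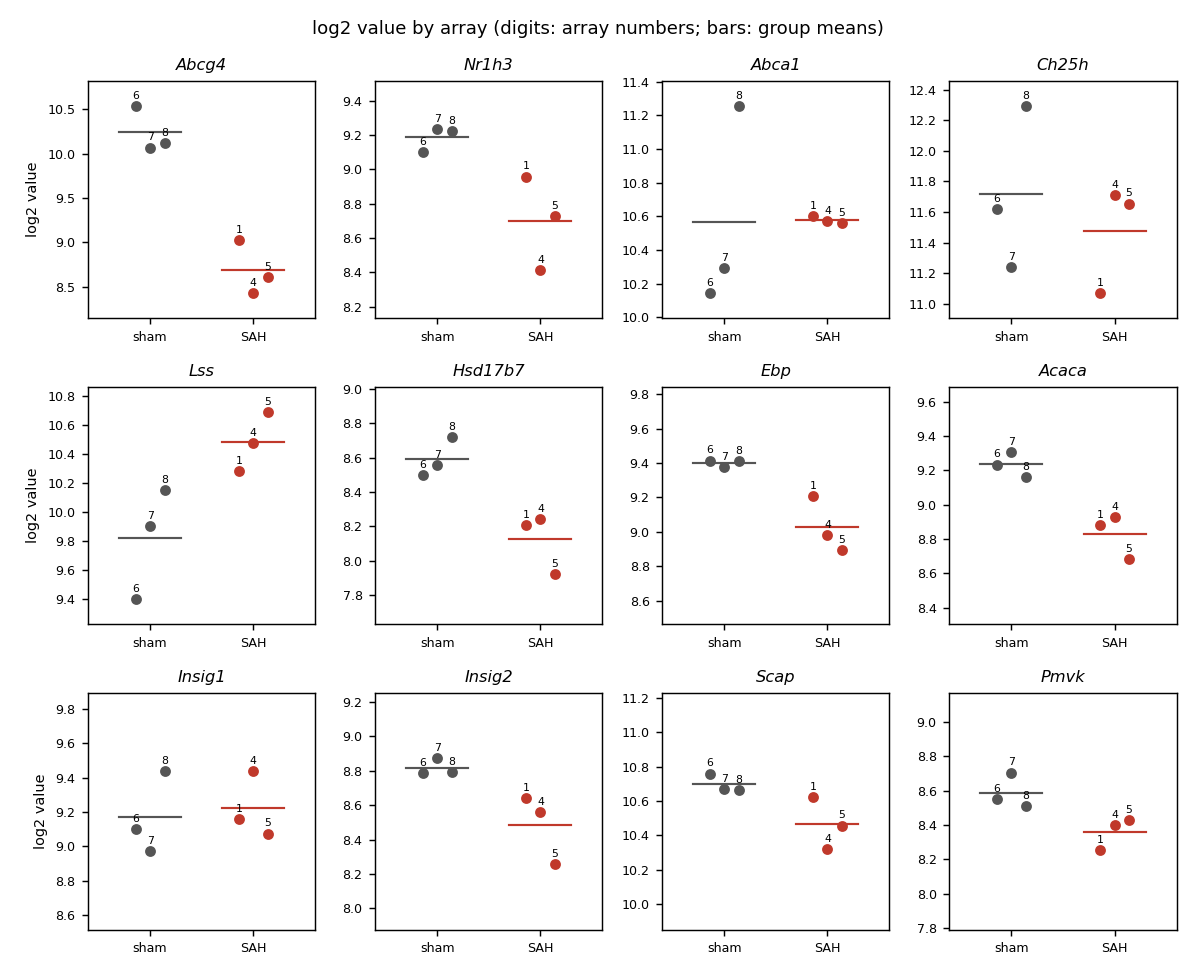
The log2 value of 12 sterol genes is plotted for each array, with sham in grey, SAH in red, the array number above each point and a bar at each group mean; the vertical axes do not start at 0 and differ between genes. The SAH points of Abcg4 lie below all sham points, those of Lss above them, and sham array 8 stands above the other sham arrays in Abca1, Ch25h and Insig1.

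The early, mevalonate part of synthesis showed no called gene among 5 measured, and its median difference was -0.002. Acat2, the cytosolic thiolase that starts the route, differed by -0.002 ± 0.108 (SE) and Mvd, which makes isopentenyl diphosphate, by 0.03 ± 0.09. Fdps, farnesyl diphosphate synthase, differed by 0.06 ± 0.14. Idi1, the isomerase before it, varied most of these 5 genes between arrays of the same group. It read 7.81, 8.54 and 8.16 after SAH and 8.14, 7.92 and 8.68 in sham, with a difference of -0.08 ± 0.25. Pmvk, phosphomevalonate kinase, was the one gene of this arm whose groups did not overlap. It read 8.25, 8.40 and 8.43 after SAH and 8.55, 8.71 and 8.51 in sham, a difference of -0.23 ± 0.10 with a limma adjusted p of 0.387.

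In the later part, from squalene to cholesterol, 9 of 11 differences lay below 0 and the median was -0.13, with none called. Lss, lanosterol synthase, which closes the sterol rings, stood apart from the rest of the arm (probe set 17757696). It read 9.40, 9.90 and 10.15 in sham and 10.29, 10.48 and 10.69 after SAH. The SAH arrays all lay higher, by 0.13 at the nearest pair, and the mean was 9.82 ± 0.38 in sham and 10.48 ± 0.20 in SAH (SD, n = 3 each). The difference of 0.67 ± 0.21 (SE; 95% interval 0.17 to 1.16), or 1.59-fold, was not called (limma adjusted p = 0.219). It was 0.46 without sham array 6, 0.84 without sham array 8, and 0.35 ± 0.19 with the neutrophil covariate, where the limma adjusted p was 0.636.

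Hsd17b7, a ketoreductase of sterol intermediates, had the smallest p of the synthesis genes. It read 8.50, 8.56 and 8.72 in sham and 8.21, 8.24 and 7.92 after SAH, with SAH array 5 lowest. Its difference was -0.47 ± 0.13 (SE; 95% interval -0.76 to -0.17), or 1.38-fold, with a limma adjusted p of 0.168. Ebp, the isomerase that moves a double bond in the sterol ring, read 9.41, 9.38 and 9.41 in sham and 9.21, 8.98 and 8.89 after SAH. Its sham arrays were nearly level and all SAH arrays were lower, with a difference of -0.37 ± 0.11 and a limma adjusted p of 0.200. The last enzymes of the route, Sc5d, a desaturase, and Dhcr7, a reductase, differed by -0.22 ± 0.13 and -0.20 ± 0.13, and their groups overlapped.

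The genes around the entry into this arm, which are known SREBP targets, overlapped between the groups. Fdft1, squalene synthase, differed by -0.13 ± 0.15 (SE), Sqle, squalene epoxidase, by -0.15 ± 0.18 and Cyp51, lanosterol demethylase, by -0.11 ± 0.12. Tm7sf2, a sterol reductase, differed by -0.02 ± 0.13, Msmo1, a methylsterol oxidase, by 0.03 ± 0.15 and Nsdhl, a sterol dehydrogenase, by -0.02 ± 0.12. For 12 of the 16 synthesis genes the 95% interval lay within a 1.5-fold change in either direction, the exceptions being Lss, Hsd17b7, Ebp and Idi1. It lay within a 2-fold change for 15, all but Lss. The intervals do not exclude changes inside these bounds.

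Within the SAH group many synthesis genes were lowest in the same array. SAH array 5 was the lowest of the 3 SAH arrays in 12 of the 16 genes, and SAH array 4 was the highest in 8 and the lowest in none. Over all genes SAH array 5 was lowest in 31.4% and SAH array 4 highest in 29.1%, and the differences between these shares were not tested. Msmo1 read 10.22, 10.49 and 9.96 after SAH and 10.28, 10.18 and 10.13 in sham. Sqle read 8.87, 9.35 and 8.68 after SAH and 9.03, 9.13 and 9.18 in sham. In both genes the sham arrays spanned a narrower range. The difference of Sqle was -0.34 without SAH array 4 and -0.0092 without SAH array 5. The SD was larger in SAH than in sham for 10 of the 16 synthesis genes and for 22 of all 33 members, with a median SD over the 33 of 0.188 in SAH and 0.0956 in sham. The SD was larger in SAH for 62.8% of all genes too, near the 62.5% of the synthesis genes and 66.7% of the members, with medians of 0.146 in SAH and 0.109 in sham. SAH array 5 also had the highest neutrophil list mean, 9.87. The same array had the lowest mean over 10 leptomeningeal and adventitial fibroblast markers, 11.34 against 11.77 and 11.74 in the other SAH arrays and 11.91 to 11.97 in sham arrays. Of those fibroblast markers 10 of 10 had differences below 0, none was called and 1 was lower at an unadjusted p under 0.05 by limma, and their part in the values of the synthesis genes was not tested.

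**Figure D3:**
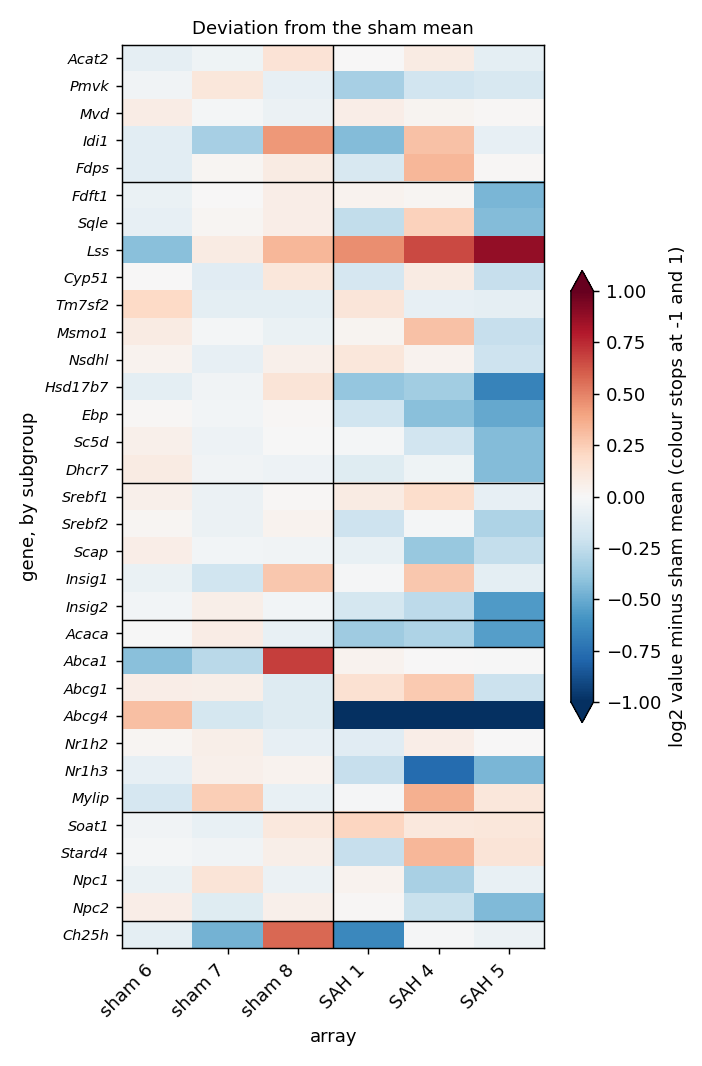
Each cell gives 1 sterol gene in 1 array as its log2 value minus the gene's sham mean, red above and blue below, with lines between subgroups and between sham and SAH arrays; the colour scale stops at -1 and 1. Abcg4 is beyond the lower end in all 3 SAH arrays, Lss is red in all 3, and SAH array 5 is the bluest column of the squalene to cholesterol arm.

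The genes of SREBP control had no called member among 5, and their median difference was -0.18. Srebf2, which encodes the factor that drives the cholesterol synthesis genes, differed by -0.18 ± 0.11 (SE) and Srebf1, which acts more on fatty acid genes, by 0.06 ± 0.11. Insig1, itself a target of SREBP and often read as a gauge of its activity, read 9.16, 9.44 and 9.07 after SAH and 9.10, 8.97 and 9.44 in sham. Its groups overlapped and the difference was 0.05 ± 0.16 (95% interval -0.32 to 0.43). The related Insig2, which is not controlled in the same way, read 8.64, 8.56 and 8.25 after SAH and 8.79, 8.87 and 8.79 in sham. All SAH arrays were lower, with a difference of -0.33 ± 0.13 and a limma adjusted p of 0.292. Scap read 10.62, 10.32 and 10.46 after SAH and 10.76, 10.67 and 10.66 in sham. Its groups were only 0.04 apart at the nearest pair, and the difference of -0.23 ± 0.11 had a limma adjusted p of 0.408.

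Acaca, acetyl-CoA carboxylase, which commits carbon to fatty acids, read 8.88, 8.93 and 8.68 after SAH and 9.23, 9.31 and 9.16 in sham. It was lower in every SAH array, with a difference of -0.40 ± 0.11 (SE; 95% interval -0.66 to -0.15), or 1.32-fold, and after Abcg4 it had the smallest adjusted p of the set, 0.166 by limma.

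The genes for handling sterol inside the cell overlapped between groups in 4 of 4. Npc1 and Npc2, which release cholesterol from lysosomes, differed by -0.12 ± 0.13 (SE) and -0.22 ± 0.14. Soat1, which esterifies cholesterol for storage, differed by 0.14 ± 0.10, reading 10.07, 9.96 and 9.97 after SAH and 9.82, 9.78 and 9.96 in sham. Npc2 read 11.79, 11.55 and 11.34 after SAH and 11.84, 11.66 and 11.83 in sham. Stard4, a carrier that moves sterol between membranes and is a known SREBP target, differed by 0.08 ± 0.15.

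Of 69 further genes of sterol and lipid metabolism, in 5 lists, 60 were measured, and 1 was called higher and 1 lower. Nceh1, a hydrolase that frees stored cholesterol from its esters in macrophages, rose. It read 8.65, 8.45 and 9.34 in sham and 10.24, 11.06 and 10.66 after SAH, all higher, with a difference of 1.84 ± 0.28 (SE), or 3.58-fold (limma adjusted p = 0.0478). The call ended with array medians subtracted (limma adjusted p = 0.0542) and with the neutrophil covariate (0.200; difference 1.48). It also ended when SAH array 4 (limma adjusted p = 0.153), SAH array 5 (0.162), sham array 6 (0.221) or sham array 7 (0.183) was dropped, with differences of 1.64 to 1.84. The 10 macrophage and monocyte markers had a median difference of -0.43, from -1.29 in Cd163 to 0.56 in Itgam, with 4 above 0 and none called, and their part in the value for Nceh1 was not tested.

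Me1, malic enzyme, which supplies reducing power for lipid synthesis, fell and was the one called of 13 measured further SREBP target genes. It read 10.33, 10.26 and 10.27 in sham and 9.69, 9.72 and 9.65 after SAH. Both groups were tight and well apart, and the mean was 10.29 ± 0.04 against 9.69 ± 0.03 (SD, n = 3 each), a difference of -0.60 ± 0.09 (SE), or 1.51-fold (limma adjusted p = 0.0416). With the neutrophil covariate, where limma called no gene of the series lower, the difference was -0.58 ± 0.12 (adjusted p = 0.215). The call ended when SAH array 4 (limma adjusted p = 0.133), SAH array 5 (0.147), sham array 6 (0.222), 7 (0.181) or 8 (0.125) was dropped, with differences of -0.61 to -0.58. The median difference of these 13 genes was -0.23.

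The remaining lists had no called gene, and their leading members by p are given. Cyp27a1, a mitochondrial sterol hydroxylase that makes an oxysterol, read 9.32, 8.74 and 8.96 in sham and 10.29, 10.78 and 10.07 after SAH. All SAH arrays were higher, and its difference was 1.37 ± 0.22 (SE), or 2.59-fold, with a limma adjusted p of 0.0535. It passed the same threshold in 4 of the alternative fits, with limma adjusted p of 0.0201 to 0.0460. It passed in none of the 6 fits with an array left out (limma adjusted p of 0.0596 to 0.205), nor with the neutrophil covariate (0.168). Cyp46a1, the cholesterol hydroxylase of neurons, differed by -0.18 ± 0.09, and 8 oxysterol genes were measured in that list.

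Rxra, the partner receptor that LXR needs to bind DNA, read 9.88, 9.92 and 9.79 in sham and 9.30, 9.02 and 8.77 after SAH. It was lower in every SAH array, with a difference of -0.83 ± 0.15 (SE), or 1.78-fold, and a limma adjusted p of 0.0701. It passed the same threshold in 4 alternative fits that kept all arrays (limma adjusted p of 0.0260 to 0.0473) and without SAH array 1 (0.0210). It did not pass without any of the other arrays (limma adjusted p of 0.152 to 0.271) or with the neutrophil covariate (0.301). Pltp, a phospholipid transfer protein and LXR target, differed by -0.25 ± 0.10, and 10 genes of that list were measured. Among 10 measured regulators of the pathway, Mbtps1, the protease that makes the first cut in SREBP, differed by -0.51 ± 0.12 with a limma adjusted p of 0.129. Rnf139, a ubiquitin ligase of the endoplasmic reticulum, differed by 1.06 ± 0.28 with an adjusted p of 0.169 in limma. It was 0.00639 without SAH array 1, which at 10.21 lay below the other SAH arrays at 11.32 and 11.19, but 0.311 to 0.402 without any other array and 0.486 with the neutrophil covariate, by limma.

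**Figure D4:**
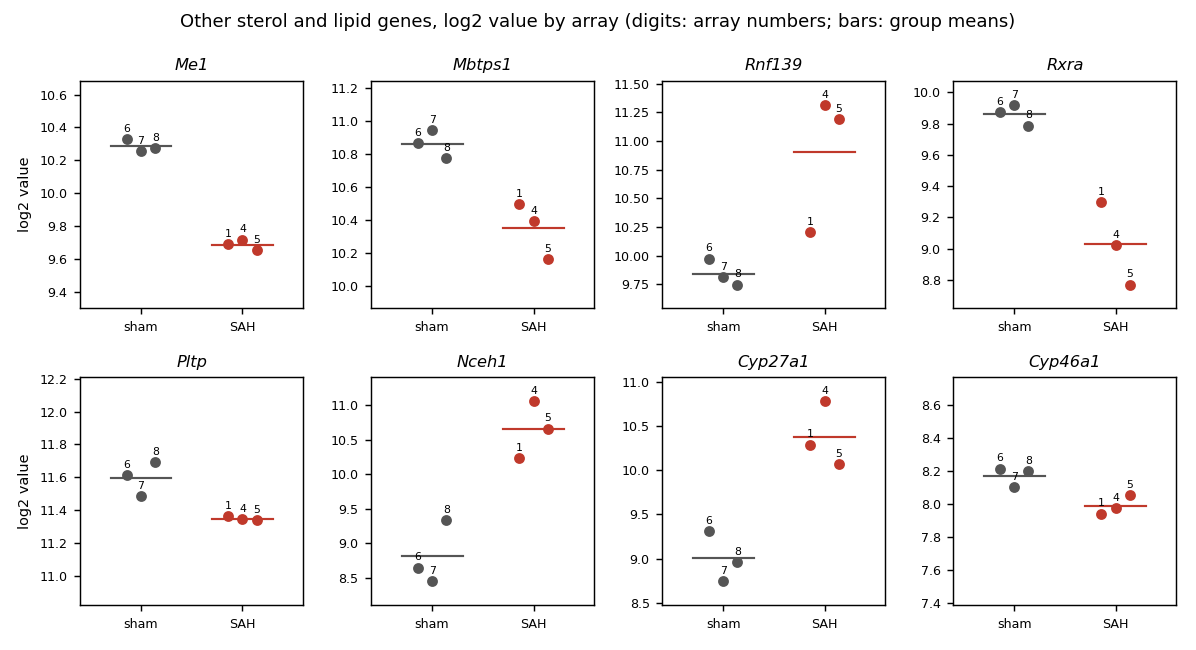
The log2 value of 8 further genes of sterol and lipid metabolism is plotted for each array, with sham in grey, SAH in red, array numbers above the points and bars at group means; the vertical axes do not start at 0 and differ between genes. Nceh1 and Cyp27a1 are higher in all 3 SAH arrays, Me1, Mbtps1, Rxra, Pltp and Cyp46a1 lower in all 3, and SAH array 1 of Rnf139 lies close to the sham arrays.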

How the data were processed

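Per the submitters' processing notes, the authors made the values with Affymetrix Expression Console 1.1.2 and RMA, which yields normalized log2 values, 1 per probe set, as deposited. Its settings and the genome build are not given here. RMA brings the arrays to nearly 1 distribution and can understate differences of dim genes. Of 36685 probe sets, 190 Affymetrix controls were set aside and 36495 tested. GEO's platform annotation, with symbols updated through the RefSeq gene table of GRCr8, gave 1 gene for 18511 probe sets, several for 575 and no name here for 17409. The groups were contrasted on the log2 scale by lmFit and eBayes of limma 3.58.1 (R 4.3.3), with no covariate, and the procedure was tested on simulated data. No fit imputed a value, and the fits without an array dropped only that one. Precision is limited by the number of arrays.

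The members and lists were chosen with earlier results of these data known, so lists carry counts and medians and no p-value. All 36 members are named. Further genes are named where called, or as the 2 with the smallest p of a list without a call. Alternatives tried were removal of dim probe sets (those above the array median on fewer than 3 arrays), repeated quantile normalization, array medians subtracted, trend and robust eBayes, array weights, adjusted p under 0.10, gene means of probe sets, a neutrophil covariate and each array left out.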

Additional observations from a re-analysis of the deposited data

How the results depend on the processing

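No sterol gene was called higher in any of the 14 alternatives run. The count called lower was 1 (Abcg4) in the reported fit and 0 with the neutrophil covariate, and it ranged from 0 to 1 with an array left out. Of the other members, none passed in any alternative. Differences that changed sign all belonged to members that were not called. These were Acat2 (0.016 with repeated quantile normalization, 0.019 with array weights), Idi1 (0.039 with array weights), Tm7sf2 (0.00011 with repeated quantile normalization) and, with the neutrophil covariate, Tm7sf2 (0.090), Nsdhl (0.017), Insig1 (-0.076), Abca1 (-0.45) and Nr1h2 (0.030). With an array left out the ranges that crossed 0 were -0.20 to 0.36 for Abca1, -0.032 to 0.21 for Abcg1, -0.049 to 0.068 for Acat2, -0.48 to 0.048 for Ch25h, -0.22 to 0.027 for Fdft1, -0.071 to 0.17 for Fdps, -0.26 to 0.14 for Idi1, -0.053 to 0.19 for Insig1, -0.10 to 0.16 for Msmo1, -0.055 to 0.037 for Nr1h2, -0.085 to 0.074 for Nsdhl, -0.0011 to 0.13 for Srebf1, -0.052 to 0.23 for Stard4 and -0.086 to 0.082 for Tm7sf2. A further 10 members kept their sign but moved by over 1.5 times. Their ranges were -0.20 to -0.044 for Cyp51, -0.27 to -0.081 for Dhcr7, -0.41 to -0.22 for Insig2, 0.0067 to 0.074 for Mvd, 0.047 to 0.27 for Mylip, -0.20 to -0.017 for Npc1, -0.33 to -0.11 for Npc2, -0.31 to -0.10 for Sc5d, -0.34 to -0.0092 for Sqle and -0.26 to -0.11 for Srebf2. The cause of these changes was not tested. The filter on dim probe sets adjusts over only the probe sets it keeps, which represented 11323 genes. The fit on gene means adjusts over 18166 genes in place of 36495 probe sets. These 2 fits called 313 and 317 genes lower in place of 60. No paired analysis was possible because no array number occurs in both groups.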

Other observations

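Further genes of lipid handling, chosen after their values were seen, had groups that did not overlap without being called. Of the 60 further genes measured, 12 were higher and 14 lower without overlap of the groups. Over all genes 11.4% were higher and 15.4% lower in this way. Lipa, the lysosomal acid lipase that frees cholesterol from lipoprotein esters, read 10.41, 10.30 and 10.29 in sham and 10.70, 11.07 and 10.77 after SAH, a difference of 0.51 ± 0.12 (SE; limma adjusted p = 0.141). Stard5, a sterol carrier, differed by 0.96 ± 0.30 (limma adjusted p = 0.214), with SAH array 1 at 9.20 and SAH arrays 4 and 5 at 10.27 and 10.35, above sham values of 8.91 to 9.03. Acss2, which makes acetyl-CoA from acetate, differed by 0.55 ± 0.12 (limma adjusted p = 0.111). The fatty acid elongase gene Elovl6 differed by -0.64 ± 0.15 and the desaturase gene Fads1 by -0.90 ± 0.32, with limma adjusted p of 0.139 and 0.266. In Fads1 SAH array 5 read 9.42, SAH array 4 10.30 and SAH array 1 10.73, against 10.80 to 11.23 in sham arrays. Of the fits with an array left out, Stard5, Acss2 and Elovl6 were each called in 1, and Lipa and Fads1 in 0. Over those fits the limma adjusted p ran from 0.0049 to 0.471 for Stard5, 0.0473 to 0.339 for Acss2 and 0.0232 to 0.378 for Elovl6.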
